A study of Mus musculus with 8 samples.

Results

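The Cyp2 gene cluster on mouse chromosome 7 holds cytochrome P450 genes of the Cyp2s, Cyp2b, Cyp2a, Cyp2g and Cyp2f subfamilies. It was taken here as the mm9 window chr7:26580001-27950000, a length of 1.37 Mb, and as 10 member genes, which in order along the chromosome are Cyp2s1, Cyp2b10, Cyp2b13, Cyp2b9, Cyp2a4, Cyp2g1, Cyp2a5, Cyp2a22, Cyp2a12 and Cyp2f2. The window made up 137 of the 265479 bins of 10 kb in the mm9 chromosomes, and the 10 genes stand among 21900 protein-coding genes in the RefSeq table of assembly GRCm38.p6. Chromatin immunoprecipitation and sequencing was used to profile H3K27me3, a repressive mark that Polycomb complexes place on histone H3, in the liver of CD1 (ICR strain) male mice, which are outbred and were 7 weeks old when obtained. The TCPOBOP livers came from mice injected with 3 mg/kg TCPOBOP, and the vehicle livers from mice given 1% DMSO in corn oil, and all were collected 3 h later. Each group had 3 individual livers with a library of 600 to 1100 bp fragments, and replicate 1 of each group had a further library of fragments over 1100 bp made from the same immunoprecipitate. The shorter fragments were cut to 500 bp before sequencing and the longer ones to 200 bp. Whole liver was used, so a mark on fewer cells and less of the mark per cell cannot be told apart.

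Cytochrome P450 enzymes of family 2 oxidise drugs, steroids and other foreign or endogenous lipids, and many of them are made mainly in hepatocytes. TCPOBOP activates CAR, a nuclear receptor that binds to enhancers of drug-metabolism genes and switches on Cyp2b10 in mouse liver. In male mouse liver H3K27me3 has been described over genes whose expression is higher in females, a class that includes Cyp2b9, Cyp2b13 and Cyp2a4. The design sets TCPOBOP livers against vehicle livers, and the comparison made here was of Cyp2b10, the CAR target, with its neighbours.

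Promoter sequences are shown first because the members differ in CpG content, a feature that goes with Polycomb binding in mammals, and because close copies limit where short reads can be placed. Of the 10 members, 9 had a promoter in the RefSeq table, and Cyp2g1 had none, so its CpG content is not given. The table covers 250 bases before to 50 bases after the gene start in GRCm38.p6. These positions belong to that build and not to mm9, the build of the islands. The 5 printed run 5′ to 3′ on the strand of the gene, with CpG dinucleotides in capitals. They lie at chr7:25816476-25816775 (minus strand) for Cyp2s1, chr7:25897408-25897707 (plus strand) for Cyp2b10, chr7:26061245-26061544 (plus strand) for Cyp2b13, chr7:26173159-26173458 (plus strand) for Cyp2b9 and chr7:26835089-26835388 (plus strand) for Cyp2a5.
Cyp2s1: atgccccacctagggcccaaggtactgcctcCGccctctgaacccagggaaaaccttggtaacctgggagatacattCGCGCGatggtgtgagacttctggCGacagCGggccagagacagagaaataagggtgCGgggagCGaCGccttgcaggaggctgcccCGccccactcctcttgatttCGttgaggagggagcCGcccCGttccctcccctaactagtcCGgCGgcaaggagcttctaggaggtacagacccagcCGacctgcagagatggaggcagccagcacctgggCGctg
Cyp2b10: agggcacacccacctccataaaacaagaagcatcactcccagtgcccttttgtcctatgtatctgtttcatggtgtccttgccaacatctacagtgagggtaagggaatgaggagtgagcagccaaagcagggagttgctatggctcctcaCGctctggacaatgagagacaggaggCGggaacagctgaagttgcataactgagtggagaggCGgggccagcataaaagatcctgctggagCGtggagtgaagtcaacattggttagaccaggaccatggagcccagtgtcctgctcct
Cyp2b13: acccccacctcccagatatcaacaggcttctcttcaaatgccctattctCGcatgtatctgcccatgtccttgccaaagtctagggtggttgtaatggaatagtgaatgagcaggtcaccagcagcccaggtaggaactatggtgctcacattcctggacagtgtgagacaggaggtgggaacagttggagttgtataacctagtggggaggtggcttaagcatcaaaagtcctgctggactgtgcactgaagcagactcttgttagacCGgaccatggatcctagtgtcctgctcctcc
Cyp2b9: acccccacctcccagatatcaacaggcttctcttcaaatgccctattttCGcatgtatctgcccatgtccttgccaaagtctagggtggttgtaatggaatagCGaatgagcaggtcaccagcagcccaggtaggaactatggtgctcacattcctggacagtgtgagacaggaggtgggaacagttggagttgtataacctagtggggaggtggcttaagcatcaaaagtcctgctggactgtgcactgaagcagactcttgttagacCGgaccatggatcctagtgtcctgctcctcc
Cyp2a5: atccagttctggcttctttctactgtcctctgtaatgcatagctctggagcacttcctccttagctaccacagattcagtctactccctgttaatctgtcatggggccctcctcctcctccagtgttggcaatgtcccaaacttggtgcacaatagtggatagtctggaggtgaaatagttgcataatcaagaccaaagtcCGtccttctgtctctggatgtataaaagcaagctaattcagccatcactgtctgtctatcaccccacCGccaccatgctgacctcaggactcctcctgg

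Cyp2s1, a P450 of epithelia outside the liver, had 17 CpG dinucleotides in its 300 bases and a GC content of 63.0%. Cyp2b10 had 4 and the female-biased genes Cyp2b13 and Cyp2b9 had 2 and 3. The Cyp2a and Cyp2f promoters had 0 to 3. The median over all 32851 promoters in the table was 7, so Cyp2s1 was the only member of the 9 above it. The hexamer AGGTCA, which receptors of the CAR type recognise in pairs, occurred on either strand in 5 of the 9 members and in 16.3% of all promoters. The 5 were Cyp2b13, Cyp2b9, Cyp2a4, Cyp2a5 and Cyp2f2, and so did not include Cyp2b10. They include 2 pairs of near copies and are not independent. Only the 300 bases were searched, so enhancers further from the gene start were not seen. The Cyp2b13 and Cyp2b9 promoters were identical at 298 of 300 bases, and those of Cyp2a4 and Cyp2a5 were 97.7% identical when aligned. Cyp2b10 was 70.7% identical to each of Cyp2b13 and Cyp2b9. The sources used here do not say how reads with several possible positions were treated, so the cover of Cyp2b13, Cyp2b9, Cyp2a4 and Cyp2a5 is less certain than that of the other members.

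Each library was available as a list of islands, stretches that the authors' caller scored as enriched, and the value used was the percent of a window's length under islands. The lists hold no read counts, so the depth is unknown and no counting interval is given. The 3 TCPOBOP lists held 6295 to 13759 islands over 6.56 to 10.5% of the genome, and the 3 vehicle lists 10057 to 14748 islands over 7.38 to 12.8%. Lists differed in the lowest score they hold, which was 44.2, 71.0 and 77.7 for TCPOBOP 1, 2 and 3 and 84.6, 48.3 and 41.0 for vehicle 1, 2 and 3. As controls, a window over the HoxA genes, classical Polycomb targets, was 100% covered in all 8 lists, and a window over Alb and Afp, hepatocyte genes, was 0% covered in all 8. The gene windows are approximate mm9 positions rounded to 10 kb and taken from general knowledge. In GRCm38.p6 the 10 genes have the same order, and their spacing from Cyp2s1 differed from that of the windows by at most 10.6 kb.

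Along the cluster the mark formed separate blocks, and the members fell into those with islands and those with none. The windows of Cyp2s1, Cyp2b10, Cyp2b13, Cyp2b9 and Cyp2g1 lay partly under islands in at least 3 of the 6 livers. The windows of Cyp2a4, Cyp2a5, Cyp2a22, Cyp2a12 and Cyp2f2 were 0% covered in all 8 lists. The uncovered members include Cyp2a5, a coumarin hydroxylase, Cyp2a12, a steroid and bile acid hydroxylase, and Cyp2f2, which activates naphthalene. They also include Cyp2a4, a steroid hydroxylase with higher expression in female liver, so the female-biased members were not alike in cover in these lists. As said above, cover of Cyp2a4, Cyp2b13 and Cyp2b9 is less certain, because their promoters have near copies. A stretch of 344 kb at the right end of the cluster (chr7:27606001-27950000), which spans the Cyp2a5, Cyp2a22, Cyp2a12 and Cyp2f2 windows, held no island in any list. Another 140 kb around Cyp2a4 (chr7:27015601-27156000) and 272 kb between Cyp2a4 and Cyp2g1 (chr7:27248401-27520400) were likewise without islands in all 8 lists. These statements cover the lists as used here, in which rows may not be complete.

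**Figure D1:**
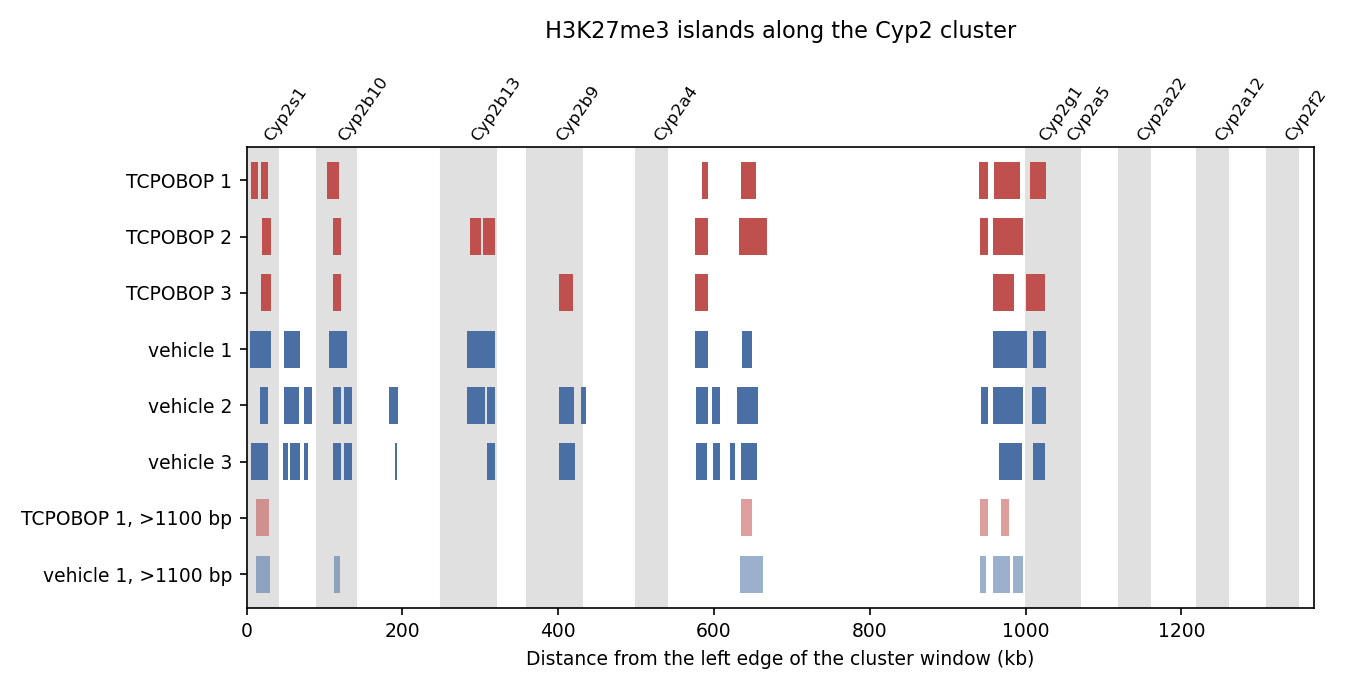
Islands in the 8 lists along the cluster, with the distance from the left edge of the window in kb on the horizontal axis, 1 list per row and member windows shaded in grey. TCPOBOP lists are red, vehicle lists blue and lists of fragments over 1100 bp paler. Islands gather over the Cyp2s1, Cyp2b and Cyp2g1 windows and in the interval before Cyp2g1, and the right-hand 344 kb is empty in every row.

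Of the 1370 kb, 317 kb (23.2%) lay under an island in at least 1 of the 6 livers, 40.8 kb (2.98%) in all 6 and 63.2 kb in 1 alone. As a share of the length covered in any liver, the part common to all 6 was 12.9% in the cluster and 12.1% in the genome, while the part seen in a single liver was 19.9% in the cluster and 32.4% in the genome. The 40.8 kb consisted of 4 stretches. They were 7.2 kb in the Cyp2s1 window (chr7:26600001-26607200), 7.6 kb in the Cyp2b10 window (chr7:26691601-26699200), and 6.4 kb and 19.6 kb between the Cyp2a4 and Cyp2g1 windows (chr7:27165201-27171600 and chr7:27545601-27565200). In the GRCm38.p6 gene order the interval between Cyp2a4 and Cyp2g1 holds Nlrp9c, Nlrp4a and Nlrp9a, genes of an oocyte-expressed family of innate immune type receptors, Vmn1r185, a vomeronasal receptor gene, and the P450 genes Cyp2b23 and Cyp2b19. Cyp2b19 is known from keratinocytes. Which of these genes the 6.4 kb and 19.6 kb stretches overlap was not determined, since no mm9 annotation was used.

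The members were taken in order of their place in the family, with all covers given as a percent of the window in replicates 1, 2 and 3. Cyp2s1 was 46, 27 and 34% covered in the TCPOBOP livers and 69, 25 and 55% in the vehicle livers. Vehicle 2 had the lowest value of the 6, so the treatments overlapped, and the difference of means was -14.0 percentage points. Cyp2s1 was also the member with the highest cover in fragments over 1100 bp, 40% in the TCPOBOP liver and 44% in the vehicle liver.

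Cyp2b10 was 32.8, 20 and 19.2% covered in the TCPOBOP livers and 48, 40 and 38.4% in the vehicle livers. Every TCPOBOP liver lay below every vehicle liver. Cyp2b10 was the only 1 of the 10 member windows whose treatments did not overlap, and 0 were higher without overlap. Over all 50 kb windows of the genome with any island, 3.99% were lower in TCPOBOP livers without overlap and 1.25% higher. The member windows span 30 to 70 kb, so that background is an approximate guide. Mean cover was lower in TCPOBOP livers for all 5 members with islands, as it was for 61.4% of all 50 kb windows with any island, and at the 4 other than Cyp2b10 the treatments overlapped. With the Cyp2b10 window moved 10 kb left, which is within the error of its placement, the treatments overlapped there too, at 32.8, 20 and 19.2% in TCPOBOP livers and 48, 36.8 and 28.8% in vehicle livers (difference of means -13.9 percentage points, exact permutation p = 0.2). With islands below a score of 84.6 left out, the highest of the 6 lowest listed scores, the treatments also overlapped at Cyp2b10, at 0, 20 and 0% in TCPOBOP livers and 48, 19.2 and 19.2% in vehicle livers, a difference of means of -22.1 percentage points. At equal covered length, 174 Mb in each list, they were 0, 20 and 19.2% in TCPOBOP livers and 48, 19.2 and 19.2% in vehicle livers, a difference of -15.7. The difference of means thus kept its sign and much of its size while the separation of the livers was lost, and under both settings vehicle 1 alone stood above all TCPOBOP livers.

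Cyp2b13 was 0, 41.7 and 0% covered in the TCPOBOP livers and 51.4, 47.4 and 14.3% in the vehicle livers. TCPOBOP 2 stood inside the vehicle range, and TCPOBOP 1 and 3 had no island there. Cyp2b9 was 0, 0 and 25.7% covered in the TCPOBOP livers and 0, 29.1 and 28.0% in the vehicle livers. The Cyp2b9 island, where present, began at the same base, 26981601, in TCPOBOP 3 and in vehicle 2 and 3, and was 18 kb long in TCPOBOP 3 and 19.2 and 19.6 kb in the vehicle livers. Vehicle 2 had a further island of 6.8 kb at the right edge of the window. Cyp2b13 was thus covered in 4 livers and Cyp2b9 in 3, and neither had an island in the lists of fragments over 1100 bp.

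Cyp2g1, a P450 of the olfactory mucosa, was 66.7, 0 and 82.7% covered in the TCPOBOP livers and 62.7, 57.3 and 53.3% in the vehicle livers. TCPOBOP 2 had no island in the window, while TCPOBOP 1 and 3 were above all vehicle livers. Cyp2g1 is next to Cyp2a5, and the last island over its window ended at 27605200 to 27606000 in the 5 livers that had one, before the window of the uncovered Cyp2a5 began. In vehicle 1 the end of an island from the left, at 27582000, also reached into the window.

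Ordered by mean cover over the 6 livers, Cyp2g1 stood at 53.8%, Cyp2s1 at 42.7%, Cyp2b10 at 33.1%, Cyp2b13 at 25.8% and Cyp2b9 at 13.8%, with the other 5 members at 0%. In this order the livers of each covered member overlapped those of the next, and the members at 0% cannot be ordered among themselves. By mean absolute difference in cover over the 6 livers, the windows most like Cyp2b10 were Cyp2s1 at 14.6 percentage points and Cyp2b13 at 18.1 percentage points. That measure also counts how much of a library lies under islands.

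**Figure D2:**
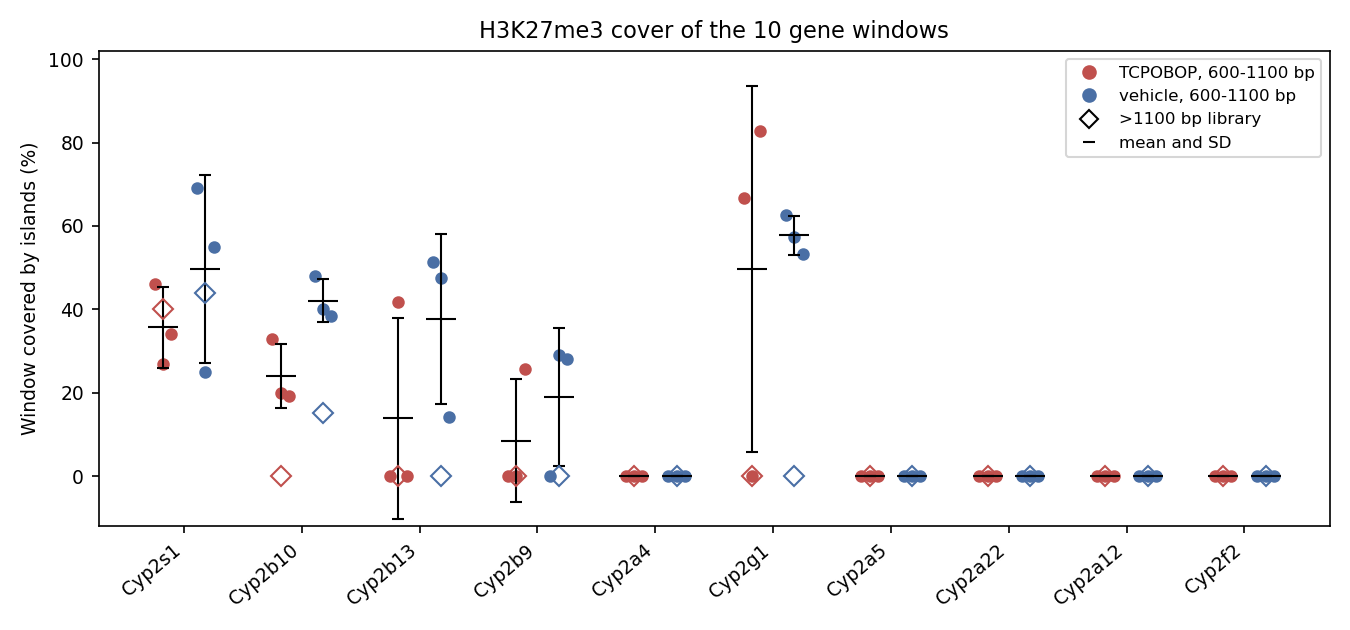
Percent of each member window under islands, with the 3 TCPOBOP livers in red at the left and the 3 vehicle livers in blue at the right of each gene, and the mean and SD in black. Open diamonds are the libraries of fragments over 1100 bp. With the windows as drawn, the treatments are apart at Cyp2b10 only, at 19.2 to 32.8% in TCPOBOP livers and 38.4 to 48% in vehicle livers, which overlap if the window is moved 10 kb left, and 5 members sit at 0% throughout.

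Within the Cyp2b10 window a central block was common to all livers in the full lists, and the left and right sides were not. On the left, chr7:26680001-26690000 was covered in replicate 1 of each treatment only, at 72% in TCPOBOP 1 and 44% in vehicle 1. In TCPOBOP livers the islands lay at 26682801 to 26699200, 26691601 to 26701600 and 26691601 to 26701200. In vehicle livers they lay at 26685601 to 26709600 in replicate 1, and at 26691201 to 26700800 in both replicates 2 and 3, which had a second island of 10.4 and 9.6 kb further right. That second island scored 79.9 in vehicle 2 and 41.4 in vehicle 3, where the lowest listed score was 41.0. The score in vehicle 3 is below the lowest listed score of every TCPOBOP list. The part of this list limit in the Cyp2b10 difference was not tested. The central island ranked 7524 of 13759, 4450 of 10197 and 6276 of 6295 by score in TCPOBOP 1, 2 and 3. In vehicle 1, 2 and 3 it ranked 2834 of 10057, 2947 of 14748 and 2663 of 12430. The central island of TCPOBOP 3, with a score of 77.8 against a lowest listed score of 77.7, was thus among the last in its list. In each vehicle liver the central island ranked within the first 28.2% of the list. Scores are the authors' own values for each library and list lengths differ, so these ranks describe each list and are not a comparison of treatments. The list of fragments over 1100 bp had an island of 7.6 kb at the same place in the vehicle liver (26692001 to 26699600) and none in the TCPOBOP liver.

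The difference at Cyp2b10 was then set against its neighbours. Mean cover of the Cyp2b10 window was 24.0 ± 7.63% in TCPOBOP livers and 42.1 ± 5.14% in vehicle livers (SD, n = 3 each), which differed by -18.1 percentage points (two-sided exact permutation p = 0.1). The cluster without that window was 8.27, 10.7 and 7.52% covered in TCPOBOP livers and 13.2, 17.2 and 13.2% in vehicle livers, and these also did not overlap (difference of means -5.67 percentage points, exact permutation p = 0.1). Cyp2b10 was more covered than the rest of the cluster in every liver, by 24.5, 9.27 and 11.7 percentage points in TCPOBOP livers and 34.8, 22.8 and 25.2 in vehicle livers. This contrast averaged 15.2 ± 8.20 in TCPOBOP livers and 27.6 ± 6.37 in vehicle livers (SD, n = 3 each) and so differed by -12.5 percentage points (exact permutation p = 0.2), and TCPOBOP 1 lay inside the vehicle range. As a ratio, the window was 3.96, 1.86 and 2.55 times as covered as the rest in TCPOBOP livers and 3.65, 2.33 and 2.91 times in vehicle livers, again with overlap. The lower cover of Cyp2b10 in TCPOBOP livers was therefore not shown to exceed that of its neighbours. A permutation of 3 livers against 3 cannot go below p = 0.1, so no such test here could reach 0.05.

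Among the 3 lists with the higher lowest scores, TCPOBOP 2 and 3 and vehicle 1, the contrast between Cyp2b10 and the rest differed by -24.4 percentage points. Among TCPOBOP 1 and vehicle 2 and 3 it differed by 0.509 percentage points, where TCPOBOP 1 at 24.5 lay between the vehicle livers at 22.8 and 25.2. The difference of the Cyp2b10 window itself was -28.4 and -6.40 percentage points in the 2 sets. Each set has a single liver in 1 treatment and was formed after the data were seen, so the signs are not read. The part of the score limit in the result was not tested.

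**Figure D3:**
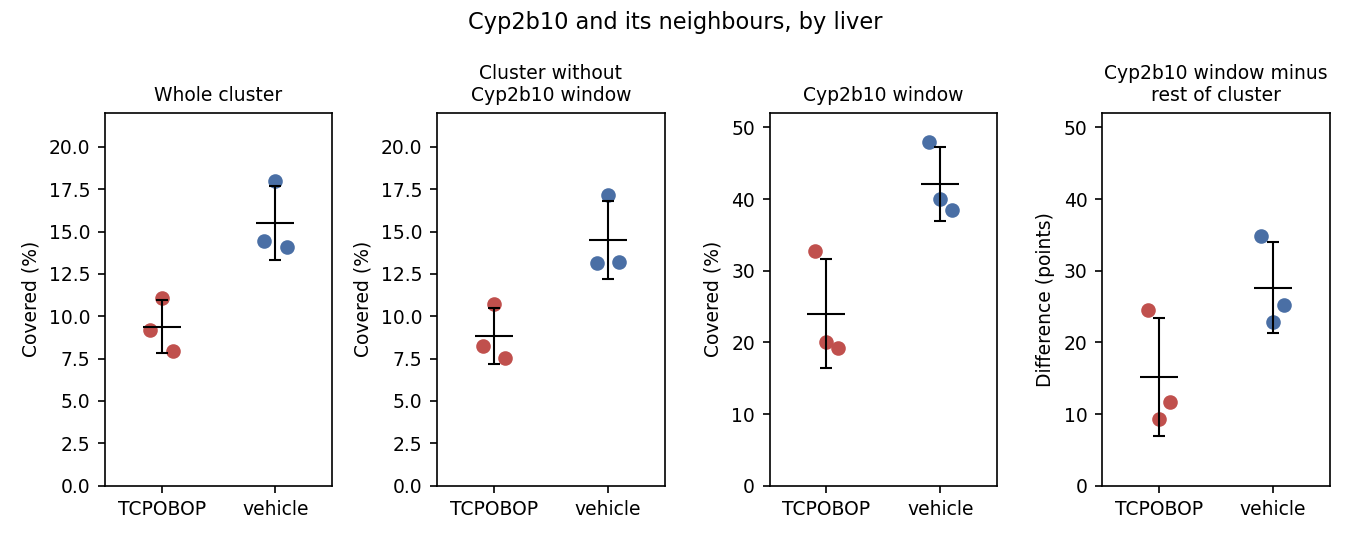
Percent covered for the whole cluster, the cluster without the Cyp2b10 window and the Cyp2b10 window, and the difference between the last and its neighbours in percentage points, with 1 point per liver, TCPOBOP in red and vehicle in blue, and the mean and SD in black. The first 3 panels show no overlap between treatments, and in the fourth TCPOBOP 1 at 24.5 lies among the vehicle livers at 22.8 to 34.8.

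The whole cluster was 9.17, 11.1 and 7.94% covered in the TCPOBOP livers and 14.4, 18 and 14.1% in the vehicle livers. Means were 9.39 ± 1.57% in TCPOBOP livers and 15.5 ± 2.17% in vehicle livers (SD, n = 3 each), or -6.12 percentage points in TCPOBOP relative to vehicle (exact permutation p = 0.1). The treatments overlapped when each list was reduced to the same covered length, at 5.99, 7.36 and 7.94% in TCPOBOP livers and 6.95, 13.3 and 11.9% in vehicle livers. Of 1600 windows of the same length with any island, 3.06% were lower in TCPOBOP livers without overlap and 1.06% higher, their median difference was -0.803 percentage points, and 73.1% had a lower mean in TCPOBOP livers. Cover of the 500 kb flanks on either side averaged 23.9 ± 2.68% in TCPOBOP livers and 28.8 ± 7.89% in vehicle livers (SD, n = 3 each), with overlap. The cluster was less covered than its flanks in each liver. Cluster minus flanks averaged -14.5 percentage points in TCPOBOP livers and -13.3 in vehicle livers, and this contrast, chosen after the data were seen, differed by -1.20 percentage points (exact permutation p = 0.8). The lower cover in TCPOBOP livers was thus not shown to be particular to the cluster. Relative to the covered percent of the whole genome, the cluster stood at 0.980, 1.05 and 1.21 times in TCPOBOP livers and 1.13, 1.68 and 1.91 times in vehicle livers, which overlapped.

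In 10 kb bins, 41 of the 137 had any island in the 6 livers. Mean cover was lower in TCPOBOP livers in 31 of these, higher in 9 and equal in 1, where 56.2% of all bins with any island were lower. Neighbouring bins share islands and are not independent. In 4 bins the TCPOBOP livers were lower without overlap and in 0 higher, against 2.55% and 0.841% of all bins with any island. The 4 bins formed 2 runs. The longer run, 30 kb at chr7:26620001-26650000 between the Cyp2s1 and Cyp2b10 windows, was 0% covered in all 3 TCPOBOP livers and 69.3, 62.7 and 60% in the vehicle livers. The other was a single bin at chr7:26700001-26710000 in the Cyp2b10 window, with 0, 16 and 12% in TCPOBOP livers and 96, 60 and 56% in vehicle livers. None of the 4 bins was without overlap once the score minimum or the equal covered length was applied, where 5 and 2 other bins were. Both settings gave chr7:26590001-26600000 in the Cyp2s1 window and chr7:26690001-26700000 in the Cyp2b10 window. Means in the Cyp2b10 bin were 28% in TCPOBOP and 92% in vehicle livers with the score minimum, and 56 and 92% at equal covered length. In the full lists that bin overlapped, at 92, 84 and 84% in TCPOBOP livers and 100, 88 and 88% in vehicle livers. With the score minimum vehicle 3 lost its islands in the run, and chr7:26630001-26640000 was 0% covered in every TCPOBOP liver and 100, 100 and 0% in vehicle livers, a difference of -66.7 percentage points. At equal covered length vehicle 3 alone kept cover there, with 0% in every TCPOBOP liver and 0, 0 and 40% in vehicle livers, a difference of -13.3. For the bin at chr7:26700001-26710000 the difference was -32.0 under the first of these settings and -28.0 under the other. In the GRCm38.p6 order only pseudogenes and lncRNA genes lie between Cyp2s1 and Cyp2b10, namely Gm4613, Gm46015, Gm6434 and Gm51461.

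The islands of the 30 kb run scored 114 in vehicle 1, 89.3 in vehicle 2, and 43.0 and 73.4 in vehicle 3. Both scores in vehicle 3 are below the lowest listed score of TCPOBOP 3, and the smaller is below that of every TCPOBOP list. The right-hand Cyp2b10 island of vehicle 3, which reaches into the bin at chr7:26700001-26710000, scored 41.4, also below that of every TCPOBOP list. Scores are the authors' own values for each library, and the part of these list limits in the difference was not tested. The longer fragments, over 1100 bp, gave no island in the 30 kb run in either treatment.

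limma, fitted on the covered fraction of 36857 bins of the genome, tested 25 bins of the cluster. It called 0 of them, and 0 bins in the genome, at an adjusted p of 0.05. At an unadjusted p under 0.05, 3 of the 25 were lower in TCPOBOP livers and 0 higher, against 2.57% and 0.768% of all bins tested. These 3 passed the filter on cover through vehicle livers alone and were all among the bins without overlap given above. They are therefore no further support. The smallest p belonged to chr7:26640001-26650000, with 0% in every TCPOBOP liver and 88, 72 and 80% in the vehicle livers (difference -80 percentage points, limma SE 12.7, limma adjusted p = 0.258). Next to it, chr7:26630001-26640000 had 0% in every TCPOBOP liver and 100, 100 and 72% in vehicle livers (difference -90.7 percentage points, limma adjusted p = 0.276). Without vehicle 3, limma tested 34967 bins of the genome and called 473 lower and 21 higher. Of the 23 bins it then tested in the cluster it called 1, this second bin, as lower (limma adjusted p = 0.04). In simulated data with residuals of these livers shuffled among bins, limma called none of the bins changed on purpose. Simulated bins did not keep their own spread, so this is a rough guide only. The 0 calls do not show that bins kept their cover.

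**Figure D4:**
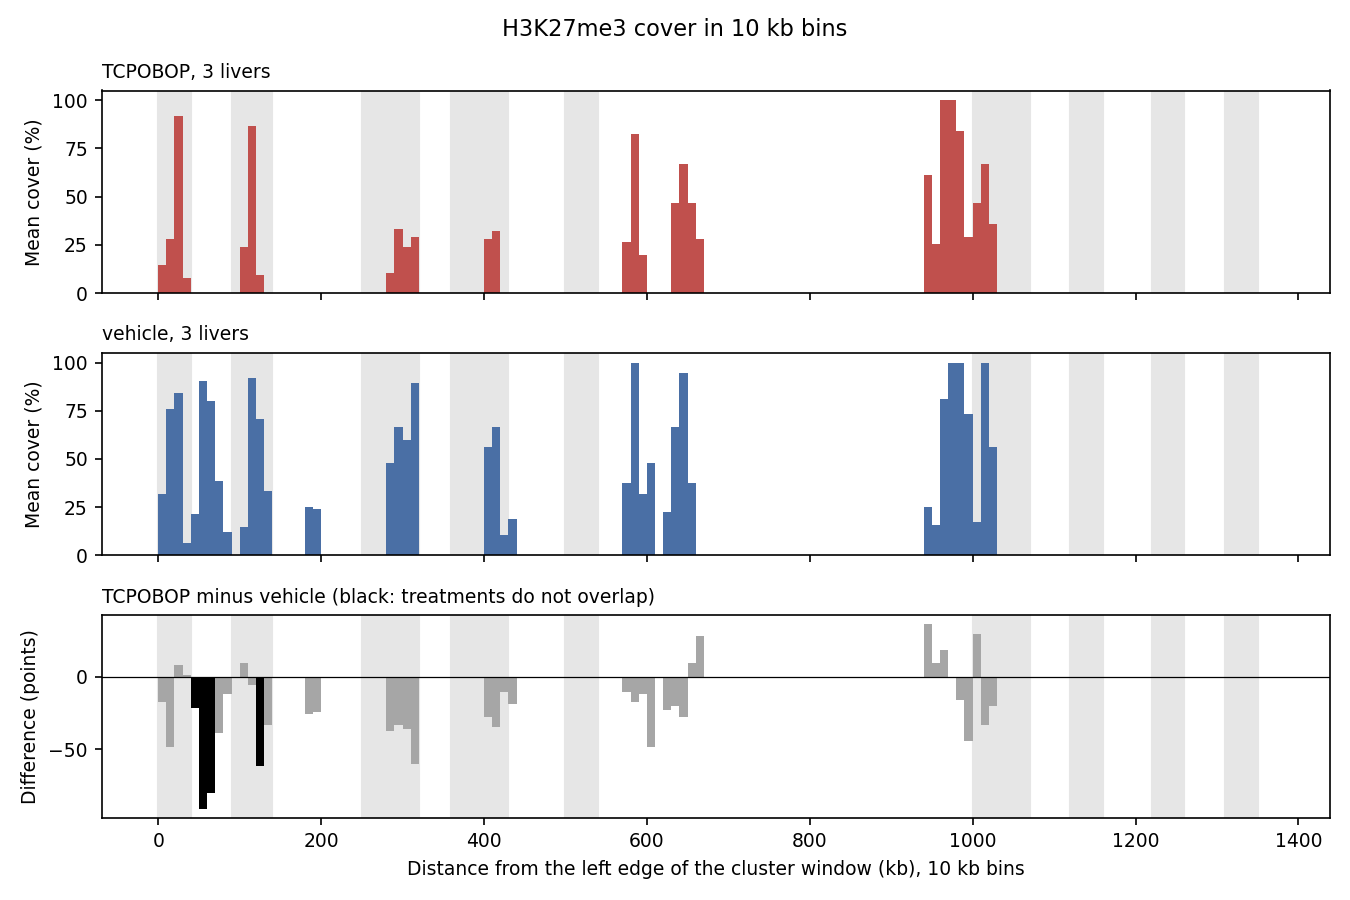
Mean cover of 10 kb bins in percent for the 3 TCPOBOP livers (top) and the 3 vehicle livers (middle), and TCPOBOP minus vehicle in percentage points (bottom), against the distance from the left edge of the cluster in kb, with member windows in grey. Black bars mark the 4 bins without overlap between treatments, 3 before the Cyp2b10 window and 1 inside it.

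**Figure D5:**
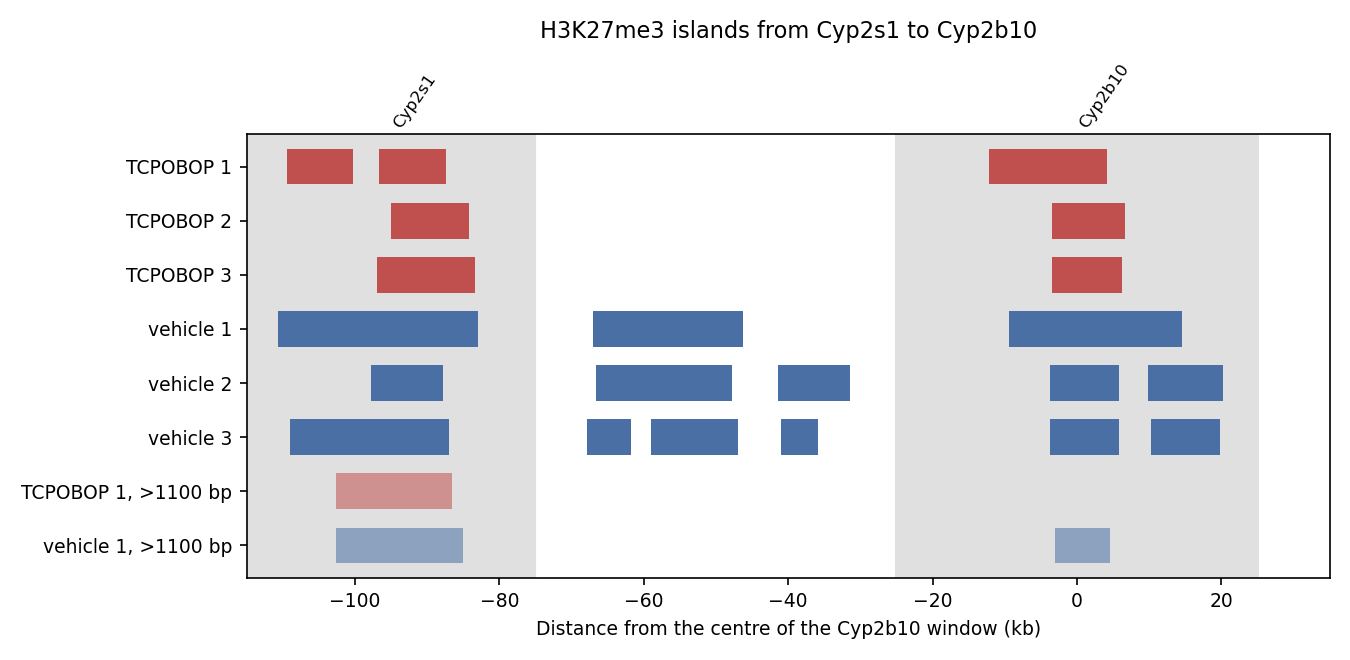
Islands in the 8 lists from the Cyp2s1 window to the Cyp2b10 window, with the distance from the centre of the Cyp2b10 window in kb on the horizontal axis and 1 list per row. All rows have an island over Cyp2s1, the vehicle rows of 600 to 1100 bp fragments have islands between the 2 windows and TCPOBOP rows have none, and a central Cyp2b10 block is absent only from TCPOBOP 1 over 1100 bp.

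Joined over the 6 livers, the islands of the cluster formed 14 regions. The longest, 67.6 kb at chr7:27538401-27606000, holds the 19.6 kb stretch common to all livers and reaches into the Cyp2g1 window. It was 78.7, 56.2 and 76.3% covered in TCPOBOP livers and 89.3, 81.7 and 68.0% in vehicle livers, with overlap. The region at chr7:27156001-27172000 was 42.5, 100 and 100% covered in TCPOBOP livers and 100, 97.5 and 95.0% in vehicle livers, and held no island in the lists of fragments over 1100 bp. No island of any TCPOBOP liver fell in 6 of the 14 regions, which came from vehicle livers alone, and 0 came from TCPOBOP livers alone. Of 14560 such regions in the genome, 23.9% came from vehicle livers alone and 13.5% from TCPOBOP livers alone. Of those 6, 1 was found in all 3 vehicle livers, 3 in 2 livers and 2 in a single liver. Outside the region found in all 3, the islands came from vehicle 2 and 3 only. They scored 86.7, 138, 57.4 and 54.9 in vehicle 2, and 43.9, 43.7, 66.1 and 41.6 in vehicle 3. The lowest listed scores were 44.2, 71.0 and 77.7 in TCPOBOP 1, 2 and 3, so many of these islands lie below a TCPOBOP list limit. Vehicle 1, which also had no island in these regions, had the highest limit, 84.6. Scores are the authors' own values for each library. A score below the limit of another list therefore does not show that the island would be missing there. The part of these limits was not tested.

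Fragments over 1100 bp gave less cover over the cluster than over the genome. In the TCPOBOP liver 3.62% of the cluster and 25.5% of the genome lay under islands, and in the vehicle liver 7.04 and 24.6%. The 600 to 1100 bp libraries of the same samples stood at 9.17% of the cluster for TCPOBOP and 14.4% for vehicle. Of the cluster territory of the shorter fragments, 35.7% in the TCPOBOP liver and 36.2% in the vehicle liver lay under islands of the longer ones. Conversely 90.3 and 74.3% of the longer fragments' territory lay within that of the shorter. The flanks were covered to 25.4 and 34.2% on the left and right in the TCPOBOP liver and 25.8 and 35.1% in the vehicle liver by the longer fragments. With 1 library per treatment there is no test, and rows of these lists may not be complete here, so an uncovered window says nothing on whether the mark was present.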

How the data were processed

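H3K27me3 islands of 8 libraries were used. Per the submitters' processing notes the tools were Bowtie2 2.3.2 and SICER 1.1 and the build mm9, with no roles given. The deposited score is the authors' value for an island, with 1 list for each library. Settings named with the files were W400 and G2400, read as window and gap in bp. The sources used here do not mention an input. Coordinates are mm9 and 1-based unless GRCm38.p6 is named.

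Cover was the percent of a window or 10 kb bin under islands. Groups came from the sample titles. Single values were compared by two-sided exact permutation tests over 20 labellings. limma 3.58.1 in R 4.3.3, with a variance trend and Benjamini-Hochberg adjustment over all bins, was fitted to bins covered to at least 0.5 in at least 2 of 6 libraries. On simulated data the fit called all the changed bins at a small spread and none with residuals of these livers shuffled among bins. Promoters were aligned globally with Biopython 1.88. Python 3.11.15 was used with numpy 2.4.6, pandas 2.3.3 and matplotlib 3.10.9.

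All 10 members were named, with every island over Cyp2b10, the stretches common to all 6 livers, runs of bins without overlap and the 2 windows most like Cyp2b10. Members, windows and lists were chosen with earlier results of these data known. Alternatives were a score minimum, equal covered length, each liver left out, other window edges, neighbours and bin sizes, other limma settings and a replicate block. The split of lists by lowest score and the comparison with flanks were added after seeing the data.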

Additional observations from a re-analysis of the deposited data

How the results depend on the processing

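The cluster difference kept its sign under 12 alternatives, from -6.96 to -1.20 percentage points, and the Cyp2b10 difference under 14, from -28.4 to -6.40. Treatments did not overlap in either, so leaving 1 liver out or splitting the lists could not reverse the sign. The replicate block gives the same mean difference by construction. For the cluster the sign was free to change above the score minimum (-6.88), at matched covered length (-3.61) and against the flanks (-1.20). For Cyp2b10 the first 2 gave -22.1 and -15.7, and the window moved left, moved right or widened gave -13.9, -18.1 and -15.7. Treatments overlapped at equal covered length for both, against the flanks for the cluster, and with the score minimum and the window moved 10 kb left for Cyp2b10. The contrast of Cyp2b10 with the rest of the cluster was 0.509 among the lists with the lower lowest scores, where 1 liver stands for TCPOBOP and the sign is not read, and ranged from -24.4 to -8.04 elsewhere and from -17.1 to -8.86 with 1 liver left out. The cause was not tested. In this contrast the treatments did not overlap without TCPOBOP 1 (-17.1) or vehicle 2 (-14.9), or with the window widened by 20 kb (-10.3). They also did not overlap among the lists with the higher lowest scores (-24.4), where 1 liver stands for vehicle.

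Bins lower in TCPOBOP livers without overlap, 4 in the report, were 2 at equal covered length, 5 under the score minimum, 7 in bins of 5 kb, 3 in bins of 20 kb and 4 to 11 with 1 liver left out, most without vehicle 1. None of the 4 was among the 2 or the 5, which both include chr7:26690001-26700000 in the Cyp2b10 window. All 4 were among those found with any liver left out, which loosens the rule by construction. Bins higher without overlap numbered 0 to 1 with 1 liver left out. limma called 0 to 494 bins of the genome with 1 liver left out, the 494 without vehicle 3, and 0 under each other setting.

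Replicate numbers are not tied to a shared animal or batch in the labels. Over bins, the deviations of livers with the same number had correlations of 0.0266, 0.0158 and 0.0599. Those of livers with different numbers ran from -0.0572 to 0.0326. All were small, so the numbers were not taken as pairs. With the replicate block, a sign-flip test gave an exact p of 0.25, the smallest possible, for the cluster (-6.12), Cyp2b10 (-18.1) and the contrast (-12.5), and limma called 0 bins. The unknown depth limits what the lists can show.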
